A study of Oryza sativa Indica Group with 36 samples.

Results

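BT3H3 is the cold-insensitive rice cultivar DC907 after 3 days at 8 ℃ and 3 days back at room temperature, and BCK is DC907 that was never cooled. The comparison of BT3H3 with BCK was chosen by its labels and holds 6 of the 36 libraries of the study, 3 in each group. All plants of both groups carry the DC907 genotype, which the labels call NIL and which is near-isogenic to the cold-sensitive cultivar 9311. They were germinated at room temperature and grown hydroponically to the four-leaf stage, and RNA was taken from stems and leaves together. In the other DC907 groups used here, BT3 is 3 days of cold, BT3H1 adds 1 day of recovery, and BT1H3 is 1 day of cold with 3 days of recovery. ACK, AT1 and AT1H1 are 9311 without cold, after 1 day of cold, and after 1 day of cold with 1 day of recovery. A single uncooled group stands for all time points of a cultivar, so the days of growth that the recovered plants had passed and the cold followed by recovery cannot be told apart in BT3H3 against BCK. The labels say that the libraries are biological replicates and give no number of plants behind each, so p-values measure the spread between these libraries.

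Chilling slows enzymes, stiffens membranes and lets reactive oxygen species build up in rice leaves. The plant answers with transcription factors of the AP2, MYB and NAC families, with glutathione and ascorbate enzymes that detoxify the oxygen species, and with starch breakdown and trehalose metabolism. Abscisic acid, jasmonate and calcium signals, and polyamines, which are oxidised by polyamine oxidases, also take part, and during rewarming many of these responses are wound back while growth resumes.

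The 6 libraries held 16084160 to 18789555 counts on genes. As cultivar markers, 108 genes were chosen that separated ACK, AT1 and AT1H1 from DC907 after 1 day of cold, without or with 1 day of recovery. Of these, 92.6% to 98.1% lay on the DC907 side in the BT3H3 libraries and 73.1% to 92.6% in the BCK libraries. The share in ACK, AT1 and AT1H1, at most 5.56%, was low by that choice and is no independent baseline. The files pair no identifier with a gene name, so the tissue could not be checked by marker genes. The BCK libraries differed more among themselves than the BT3H3 libraries. Across genes, log2 CPM (counts scaled to the library total) correlated at 0.84 to 0.87 within BCK and at 0.92 to 0.96 within BT3H3. In BCK replicate 1 the 10 most abundant genes held 10.6% of the counts, against 3.70% to 5.51% in the other 5 libraries. BCK replicate 2 was the highest of its group in 46.1% of 22613 genes and lay at least 3-fold above the next library in 5.77% of them.

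On the third day after a cold of 3 days, the transcriptome of DC907 differed from that of plants that were never cooled, with more genes lower than higher. Of the 22613 genes tested, 4095 (18.1%) were differentially expressed genes (DEGs), taken as an adjusted p under 0.05 (edgeR, quasi-likelihood, adjusted after Benjamini and Hochberg over all genes tested). Of these, 1894 (8.38% of the genes tested) were upregulated in BT3H3 and 2201 (9.73%) were downregulated, so 46.3% of the DEGs were upregulated. Scaled by library totals alone, a choice made after the scaling factors were seen, 2800 genes were upregulated and 1740 downregulated, and 61.7% of the DEGs were then upregulated. The median log2 fold change of all genes tested was -0.04 after TMM normalization and 0.21 with library totals.

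The downregulated genes changed further than the upregulated ones. The median log2 fold change was 1.66 among upregulated and -2.43 among downregulated genes, where the same libraries chose the genes and gave the values. At least 2-fold changes were found in 1649 upregulated and 2155 downregulated genes. At least 4-fold changes were found in 732 and 1446 of them, and at least 16-fold changes in 185 and 372. The median level of the upregulated genes was 9.62 FPKM (fragments scaled to gene length and library total) in BCK and 36.5 FPKM in BT3H3. For the downregulated genes it was 34.3 FPKM in BCK and 7.30 FPKM in BT3H3. In FPKM all 1894 upregulated genes had their 3 BT3H3 libraries above the 3 BCK libraries, and 2133 of the 2201 downregulated genes had them below. Over all genes tested, 30.8% were separated upward and 15.1% downward. These FPKM are scaled by library totals, while the fold changes are after TMM. With library totals more DEGs were upregulated than downregulated, as given above.

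The upregulated genes held 4.59%, 6.16% and 4.42% of the counts of the BCK libraries in replicates 1 to 3. In the BT3H3 libraries the same genes held 21.4%, 20.9% and 19.6%. The downregulated genes held 32.5%, 22.0% and 33.3% of the counts in BCK. In BT3H3 they held 5.89%, 6.73% and 7.26%. Each BT3H3 library thus lay outside the range of BCK on both lists, which were drawn from these libraries, and BCK replicate 2 was the BCK library nearest to BT3H3 on both.

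**Figure D1:**
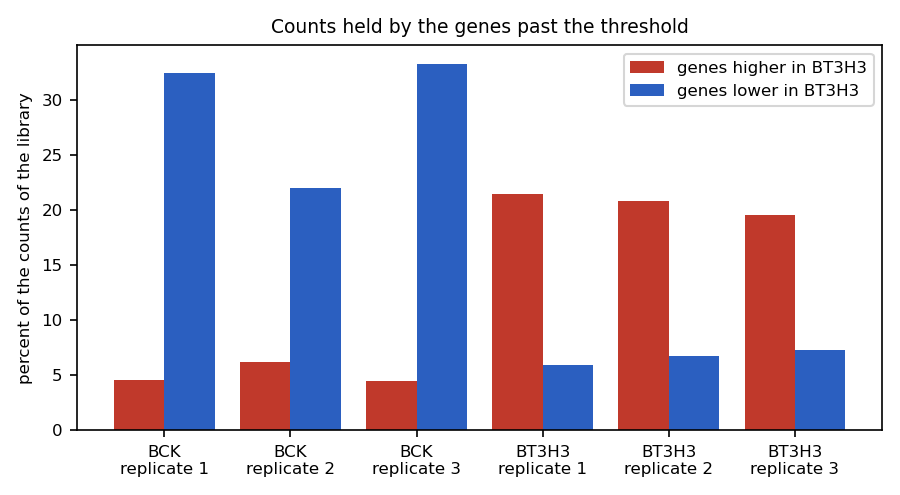
Share of the counts of each library (percent, vertical axis) held by the 1894 genes upregulated and the 2201 genes downregulated in BT3H3 against BCK, 1 pair of bars per library. The upregulated genes held 19.6% to 21.4% in BT3H3 and 4.42% to 6.16% in BCK, and the downregulated genes 5.89% to 7.26% and 22.0% to 33.3%.

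The share of DEGs was higher among abundant genes. Of the genes with a mean level under 1 FPKM, 3.89% were upregulated and 4.09% downregulated. From 60 FPKM upward, 12.8% were upregulated and 17.2% downregulated. New genes, which the authors had assembled from their own reads, made up 128 of the upregulated genes (6.76%) and 71 of the downregulated genes (3.23%), beside 6.62% of all genes tested. The median length was 1251 bases for upregulated genes, 1047 for downregulated genes and 1164 for all genes tested.

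The number of DEGs rested on all 3 BT3H3 libraries. Without BT3H3 replicate 1, 2 or 3, 0, 4 and 0 genes passed an adjusted p under 0.05 in edgeR, while 6422, 6532 and 6987 had an unadjusted p under 0.05, against 8463 with all 6 libraries. Without BCK replicate 1, 2 or 3, 4115, 4078 and 2235 genes passed. The smallest adjusted p with all 6 libraries was 0.0133. DESeq2 gave 7553 DEGs with all 6 libraries, 3030 of them upregulated and 4523 downregulated. Among the genes that were DEGs both with all 6 libraries in edgeR and in DESeq2 or in a fit with a library left out, none turned its direction. These fits share their libraries, so a turn was unlikely from the start. Without BT3H3 replicate 1, 2 or 3, only 0, 3 and 0 DEGs were shared.

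**Figure D2:**
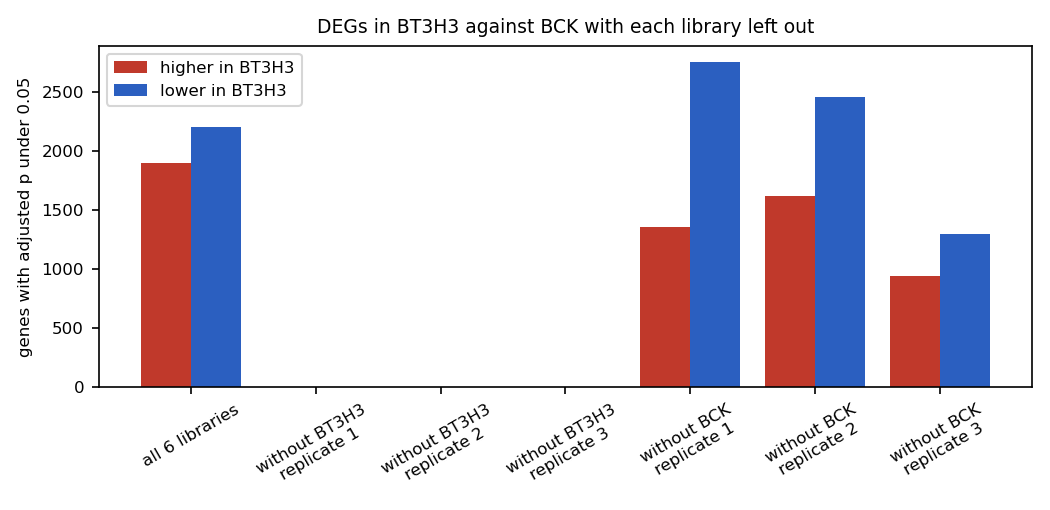
Number of genes with an adjusted p under 0.05 in edgeR (vertical axis) for BT3H3 against BCK with all 6 libraries and with each library left out, separately for genes higher and lower in BT3H3. The bars are at 0 to 2 genes whenever a BT3H3 library is left out, and between 940 and 2754 genes when a BCK library is.

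The study names 39 genes in its text or in its table of quantitative PCR primers, which it chose on these samples, so their direction is not independent evidence. In BT3H3 against BCK, 37 of the 39 were tested, 5 were upregulated, 2 were downregulated and 30 missed the threshold. That is 18.1% called among all genes tested beside 7 of 37. The median log2 fold change of the 37 genes was 0.36, beside -0.04 for all genes tested. After 3 days of cold, in BT3 against the same BCK libraries, 21 of 38 were upregulated and 6 downregulated, where 33.9% of all 23290 genes tested were DEGs, 17.2% upward and 16.7% downward. Both comparisons share their control libraries. The calls of the 7 genes against BCK need all 3 BT3H3 libraries: with any of them left out, each of the 7 kept its direction and had an adjusted p above 0.05, at most 0.13.

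Of the 6 listed transcription factors, 3 were upregulated, beside 8.38% of all genes tested, and 3 missed the threshold. The paper names the upregulated MYB genes for presumed high levels in DC907 recovery after 3 days of cold. It places the upregulated AP2 domain gene in a BT3H3 module. This share is therefore no independent evidence. The MYB gene BGIOSGA005283, of a family of DNA-binding regulators, stood at 108, 131 and 239.8 FPKM in the 3 BCK libraries. In BT3H3 it stood at 2975, 1959.8 and 1166 FPKM. The lowest BT3H3 library was above the highest BCK library. In the fit of BT3H3 against BCK its log2 fold change was 3.38 ± 0.54 (SE, 3 libraries against 3; adjusted p = 0.0187 in edgeR). At the end of the cold, in BT3, the gene stood at 9.41, 0.933 and 1.45 FPKM, below every BCK library. After 1 day of recovery, in BT3H1, it was at 581, 384 and 295 FPKM, between BCK and BT3H3. BT3H3 exceeded BT3H1 by a log2 fold change of 2.42 ± 0.40 (adjusted p = 0.0261 in edgeR). Calls in BT3H3 against BT3H1, here and below, hang on single libraries. Their number, 1904, fell to between 1 and 1247 with 1 library left out.

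The other MYB gene, BGIOSGA019054, was upregulated as well. It stood at 93.9, 169 and 153 FPKM in BCK and at 1525, 1203 and 479 FPKM in BT3H3. The groups did not overlap, and BT3H3 replicate 3 was the lowest of its group, as it was for the MYB gene above. The log2 fold change was 2.69 ± 0.49 (SE, adjusted p = 0.0226 in edgeR). In BT3 it stood at 14.8, 9.69 and 10.8 FPKM, a log2 fold change of -3.49 ± 0.35 against BCK (adjusted p = 0.00485). From BT3H1, at 449.8, 404 and 329 FPKM, the difference to BT3H3 missed the threshold (1.58 ± 0.40, adjusted p = 0.0583). Both MYB genes were thus DEGs in opposite directions at the end of the cold and on the third day of recovery. The direct contrast of BT3H3 with BT3, which uses no BCK library, gave log2 fold changes of 8.70 ± 1.21 for BGIOSGA005283 and 6.27 ± 0.57 for BGIOSGA019054 (adjusted p = 0.00166 and 0.000472 in edgeR).

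The AP2 domain gene BGIOSGA029415, of the family that holds the cold-responsive CBF regulators, stood at 24.5, 32.8 and 16.9 FPKM in BCK. In BT3H3 it stood at 76.7, 123 and 252 FPKM. The groups did not overlap, with BT3H3 spread over more than 3-fold. The log2 fold change was 2.37 ± 0.50 (SE, adjusted p = 0.0286 in edgeR). In BT3 it stood at 296, 73 and 116 FPKM, overlapping with BT3H3, and BT3H3 against BT3 gave -0.37 ± 0.67 (adjusted p = 0.666). On the first day of recovery the 3 libraries were at 59.6, 19.5 and 17.3 FPKM, all below BT3H3, while BT3H3 against BT3H1 missed the threshold (2.40 ± 0.65, adjusted p = 0.0687). BT1H3, after 1 day of cold, stood at 226, 56.1 and 119 FPKM and overlapped with BT3H3 (0.13 ± 0.61, adjusted p = 0.904 in edgeR). The call against BCK was lost with all 36 libraries in 1 fit (adjusted p = 0.0824) and without BCK replicate 2 or 3 (0.0519 and 0.0685).

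The NAC, C3H and LOB genes on the list missed the threshold against BCK. The NAC gene BGIOSGA001951, of a plant family of stress and senescence regulators, stood at 58.9, 52.1 and 22.6 FPKM in BCK and at 115, 102 and 136 FPKM in BT3H3. The libraries of the groups did not overlap, and the log2 fold change was 1.13 ± 0.40 (95% confidence interval 0.17 to 2.10, adjusted p = 0.093 in edgeR). It fell from BT3 to BT3H3 by 1.31 ± 0.23 on the log2 scale (adjusted p = 0.00373).

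The study names 6 of the listed genes as candidate central genes of its coexpression modules, among them the NAC and LOB genes of the factors above. Of these 6, 2 were upregulated in BT3H3, beside 8.38% of all genes tested, and 0 were downregulated. Both come from modules that the paper reports as positively correlated with BT3H3, so this share is no independent evidence. The ubiquitin-transferase gene BGIOSGA015677 belongs to the enzymes that tag proteins with ubiquitin. It stood at 44.4, 45.2 and 51.4 FPKM in BCK and at 656, 765 and 1585 FPKM in BT3H3. The BCK libraries lay close together, and every BT3H3 library was more than 10-fold above them. Its log2 fold change of 4.15 ± 0.49 (SE, adjusted p = 0.0156 in edgeR), a 17.7-fold change, was the highest of the 37 listed genes. In BT3 it stood at 14.5, 3.78 and 6.11 FPKM, below BCK, and in BT3H1 at 193, 179 and 170.5 FPKM. The gain from BT3H1 to BT3H3 was 2.64 ± 0.39 on the log2 scale (adjusted p = 0.0228). In BT1H3, after 1 day of cold, the gene stood at 314, 348 and 404 FPKM, above every BT3H1 library. BT3H3 against BT1H3 missed the threshold (1.46 ± 0.37, adjusted p = 0.0547 in edgeR).

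The candidate gene BGIOSGA021806, which the sources used here do not annotate, changed less. It stood at 52.3, 65.8 and 74.5 FPKM in BCK and at 159, 161 and 134 FPKM in BT3H3, with no overlap. The log2 fold change was 0.97 ± 0.22 (adjusted p = 0.0334 in edgeR), and the call was lost without BCK replicate 1 or 2 (0.0578 and 0.066). BGIOSGA021307, another candidate without annotation, stood at 23.7, 32.2 and 26.2 FPKM in BCK and at 55.9, 52.4 and 49.2 FPKM in BT3H3. Its groups did not overlap either, and its log2 fold change of 0.68 ± 0.19 missed the threshold at an adjusted p of 0.0504.

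Of the polyamine genes, a polyamine oxidase fell. BGIOSGA014122 stood at 94.3, 132 and 88.4 FPKM in BCK and at 12.1, 11.9 and 10.7 FPKM in BT3H3. The BT3H3 libraries lay close together, far below every BCK library. Its log2 fold change was -3.43 ± 0.23 (SE, adjusted p = 0.0133 in edgeR), a 10.8-fold change. In BT3 the gene was at 44.5, 46.1 and 43.0 FPKM and in BT3H1 at 16.5, 18.7 and 22.3 FPKM, so that each later group had a lower mean. BT3H3 lay below BT3 by a log2 fold change of -2.15 ± 0.17 (adjusted p = 0.000338), and below BT1H3 by -2.23 ± 0.12 (adjusted p = 0.00733), while the difference from BT3H1 missed the threshold (-0.58 ± 0.18, adjusted p = 0.0938).

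The second listed polyamine oxidase, BGIOSGA014319, was back in the range of the uncooled plants. It stood at 96.8, 160.2 and 88.5 FPKM in BCK and at 104, 107 and 123 FPKM in BT3H3. The groups overlapped, and the log2 fold change was -0.29 (95% confidence interval -0.92 to 0.35, adjusted p = 0.468 in edgeR). At the end of the cold it had stood at 346, 599 and 505 FPKM, and it fell from BT3 to BT3H3 by 2.29 ± 0.24 on the log2 scale (adjusted p = 0.000672).

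**Figure D3:**
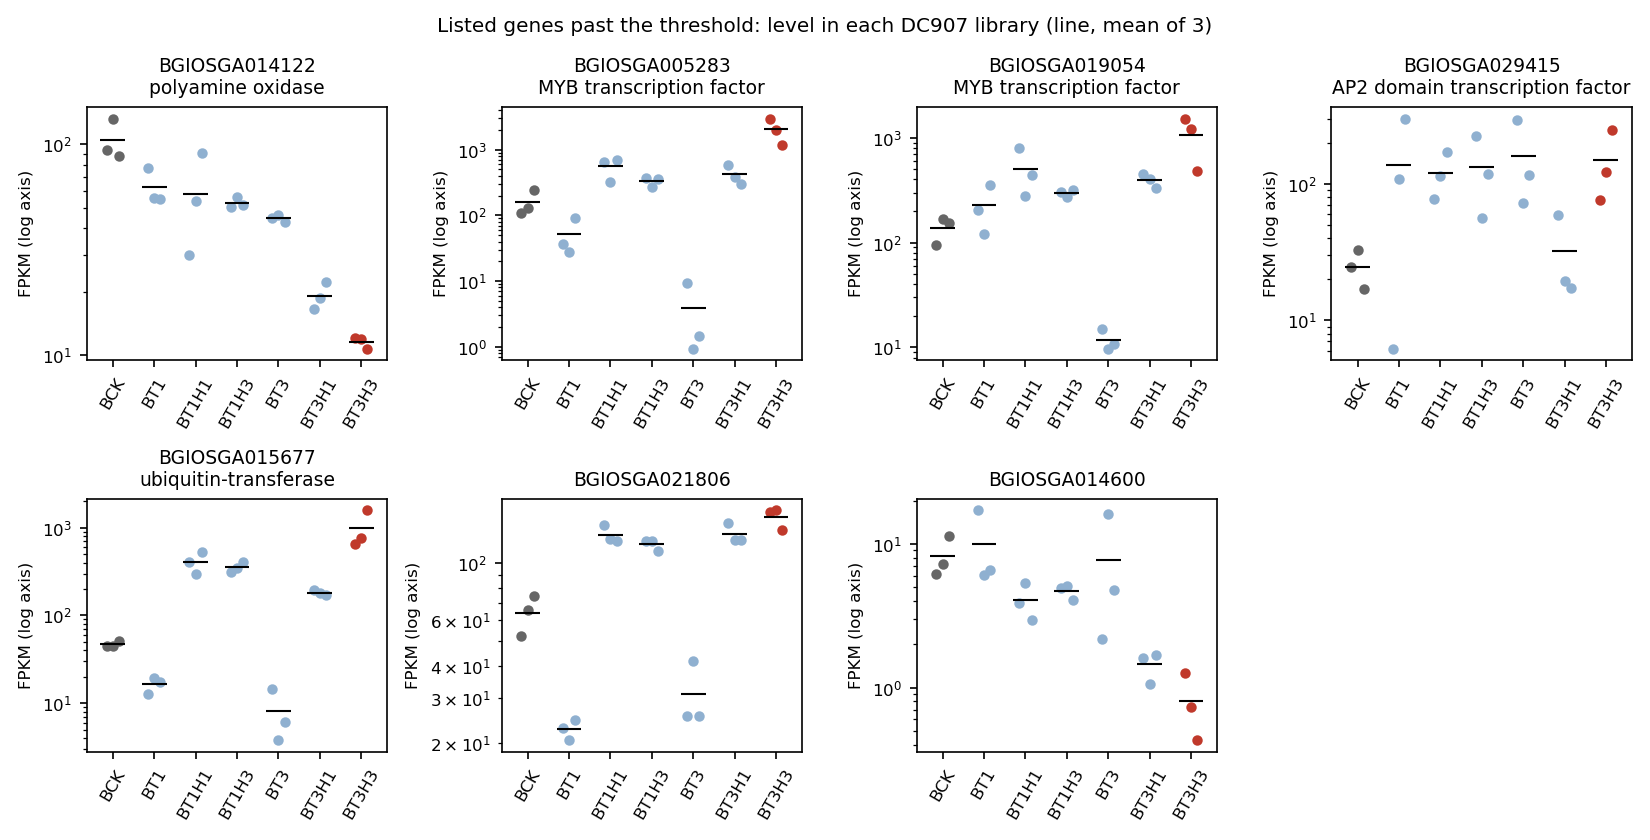
FPKM (log axis) of the 7 listed genes with an adjusted p under 0.05 in BT3H3 against BCK, in each of the 3 libraries of the 7 DC907 groups, with the mean as a line (BCK in grey, BT3H3 in red). The MYB genes and the ubiquitin-transferase gene lie below BCK in BT3 and above it in BT3H3, the polyamine oxidase has its lowest mean in BT3H3 at 11.6 FPKM, and BGIOSGA029415 spreads most within its groups.

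The last of the 7 genes, BGIOSGA014600, is listed in the primer table with no annotation. Its primers are shown because it is the only gene of that table that was a DEG here. They have 22 bases forward and 23 bases reverse, and no part of them is singled out by capitals.
BGIOSGA014600 forward: agacggaggtggactgcgagtt
BGIOSGA014600 reverse: ttcatgtagaggtgcggcgagac

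BGIOSGA014600 stood at 6.21, 7.23 and 11.3 FPKM in BCK and at 1.25, 0.734 and 0.429 FPKM in BT3H3. The groups did not overlap, and the log2 fold change was -3.63 ± 0.55 (adjusted p = 0.0175 in edgeR). In BT3 its libraries were at 2.17, 16.1 and 4.77 FPKM, on either side of BCK. Of the 14 genes in the primer table, all of them tested, this was the only DEG in BT3H3 against BCK, where 18.1% of all genes tested were DEGs.

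The antioxidant genes, which were high at the end of the cold, overlapped with the uncooled plants on the third day of recovery. None of the 4 was a DEG against BCK, with adjusted p from 0.645 to 0.982 in edgeR, and all 4 were downregulated from BT3 to BT3H3, where 51.8% of all genes tested were DEGs and 26.5% were downregulated. The glutathione S-transferase BGIOSGA033329, which joins glutathione to toxic products, stood at 59.0, 133 and 75.01 FPKM in BT3 and at 12.8, 7.44 and 10.8 FPKM in BT3H3. It fell by 3.26 ± 0.33 on the log2 scale (adjusted p = 0.00065 in edgeR), with no overlap. In BCK it stood at 2.78, 22.3 and 3.66 FPKM, so BT3H3 lay above 2 of the BCK libraries and below BCK replicate 2. Its log2 fold change against BCK was -0.03 with all 6 libraries and 1.23 without BCK replicate 2 (adjusted p = 0.982 and 0.0988). The glutathione S-transferase BGIOSGA001631 and the glutathione peroxidase BGIOSGA016904, which reduces peroxides with glutathione, also overlapped with BCK, with log2 fold changes of -0.26 ± 0.38 and -0.15 ± 0.41. From BT3 to BT3H3 they dropped by 2.05 ± 0.17 and 2.42 ± 0.28 on the log2 scale (adjusted p = 0.000375 and 0.000894).

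Monodehydroascorbate reductase, which regenerates ascorbate and is encoded by BGIOSGA029182, showed the same split of BCK. It stood at 10.4, 164 and 6.27 FPKM in BCK and at 45.5, 40.8 and 32.5 FPKM in BT3H3. With all 6 libraries the log2 fold change was -0.71 ± 1.07 (adjusted p = 0.659 in edgeR). Without BCK replicate 2 it was 1.76 with an adjusted p of 0.0304, so this library decided its direction. From BT3, at 719, 881 and 780.0 FPKM, the gene fell by 4.53 ± 0.26 on the log2 scale (adjusted p = 0.000186). From BT3H1 to BT3H3 the gene was lower by 0.72 ± 0.17, just under the threshold (adjusted p = 0.0499). The DEG count of that comparison fell to between 1 and 1247 with 1 library left out.

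BCK replicate 2 was at least 3-fold above the next BCK library in 6 of the 37 listed genes tested (16.2%), beside 5.77% of all genes tested. Glutamate decarboxylase, which makes gamma-aminobutyric acid and is encoded by BGIOSGA012193, stood at 0.601, 36.9 and 0.151 FPKM in BCK and at 13.5, 5.46 and 2.66 FPKM in BT3H3. Its log2 fold change against BCK was -0.89 with a 95% confidence interval from -4.77 to 2.99, and 3.75 without BCK replicate 2 (adjusted p = 0.717 and 0.0601), so the sign turned with this library. From BT3 to BT3H3 it fell by 5.11 ± 0.63 on the log2 scale (adjusted p = 0.00113 in edgeR).

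None of the 6 genes of sugar metabolism was a DEG in BT3H3 against BCK, while 3 were downregulated and 1 upregulated from BT3 to BT3H3, beside 26.5% and 25.3% of all genes tested. Trehalase, which splits trehalose into glucose and is encoded by BGIOSGA031535, stood at 137, 158 and 152 FPKM in BT3 and at 2.39, 3.95 and 12.9 FPKM in BT3H3. It fell by 4.72 ± 0.68 on the log2 scale (adjusted p = 0.00187 in edgeR). In BCK it stood at 1.72, 14.0 and 1.25 FPKM, which overlaps with BT3H3. The beta-amylase BGIOSGA011829, an enzyme of starch breakdown, fell from 609, 1029 and 856 FPKM in BT3 to 16.4, 20.2 and 71.6 FPKM in BT3H3 (a log2 fold change of -4.69 ± 0.68, adjusted p = 0.00195). Its BCK libraries were at 20.6, 11.6 and 6.71 FPKM, and BT3H3 replicate 3 lay above them. The other listed beta-amylase, BGIOSGA031385, did not fall. It stood at 103, 37.0 and 49.2 FPKM in BT3 and at 101, 121 and 114 FPKM in BT3H3 (0.57 ± 0.44, adjusted p = 0.313 in edgeR). In BCK it stood at 97.5, 74.2 and 20.3 FPKM, below every BT3H3 library, and missed the threshold (0.52 ± 0.54, adjusted p = 0.514).

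Trehalose 6-phosphate phosphatase, BGIOSGA028653, makes trehalose from its phosphate and stood at 3.80, 3.44 and 0.717 FPKM in BT3H3. In BCK it stood at 21.9, 10.2 and 2.26 FPKM and in BT3 at 29.3, 32.7 and 37.1 FPKM. Against BT3 and against BT1H3 it was downregulated (log2 fold changes of -3.86 ± 0.57 and -3.18 ± 0.62, adjusted p = 0.00212 and 0.029 in edgeR). Against BCK its log2 fold change of -2.45 ± 0.96 missed the threshold (adjusted p = 0.115).

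Of the 9 hormone genes, 7 were tested against BCK and none was a DEG, while 6 of 8 were downregulated and 1 upregulated from BT3 to BT3H3, beside 26.5% and 25.3% of all genes tested. NCED, the enzyme that opens abscisic acid synthesis, is encoded by BGIOSGA025169 and fell from 91.1, 195 and 222 FPKM in BT3 to 0.0791, 0.927 and 4.03 FPKM in BT3H3. The log2 fold change was -6.79 ± 1.17 (adjusted p = 0.0036 in edgeR), and BCK, at 1.09, 5.14 and 0.639 FPKM, overlapped with BT3H3. TIFY9, of the family of jasmonate repressors, is encoded by BGIOSGA016308 and stood at 1.10, 4.92 and 0.751 FPKM in BT3H3 and at 0.836, 4.96 and 0.0984 FPKM in BCK. It was downregulated against BT3 (-5.28 ± 0.71, adjusted p = 0.00145) and against BT1H3 (-3.47 ± 0.72, adjusted p = 0.0331).

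CYP707A7, of the enzymes that break down abscisic acid, is encoded by BGIOSGA029635 and lay below BCK in every BT3H3 library. It stood at 9.10, 2.60 and 1.67 FPKM in BCK and at 0.827, 1.01 and 1.56 FPKM in BT3H3, and its log2 fold change of -2.31 ± 0.78 missed the threshold (adjusted p = 0.0814 in edgeR). The kinase gene SAPK2, BGIOSGA026164, which acts in abscisic acid signalling, stood at 239, 114 and 92.0 FPKM in BCK and at 74.4, 80.9 and 103 FPKM in BT3H3, with overlap. It was downregulated in BT3H3 against BT1H3 (-1.43 ± 0.26, adjusted p = 0.025) and missed the threshold against BCK (-1.10 ± 0.46, adjusted p = 0.136).

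The single calcium gene, CAM1-3 (BGIOSGA012515), encodes a calmodulin, the protein that binds calcium and passes the signal on. It stood at 310.0, 187 and 88.1 FPKM in BCK and at 77.0, 91.7 and 118 FPKM in BT3H3. The log2 fold change of -1.33 ± 0.50 missed the threshold (adjusted p = 0.105 in edgeR). It was downregulated against BT3 (-3.35 ± 0.24, adjusted p = 0.000288) and against BT1H3 (-1.41 ± 0.27, adjusted p = 0.0283). With all 36 libraries in 1 fit, CAM1-3, the trehalose phosphatase, CYP707A7, SAPK2 and the NAC gene of the lists did pass against BCK (adjusted p from 0.0167 to 0.0443 in edgeR), as did the candidate gene BGIOSGA021307 (0.00469).

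**Figure D4:**
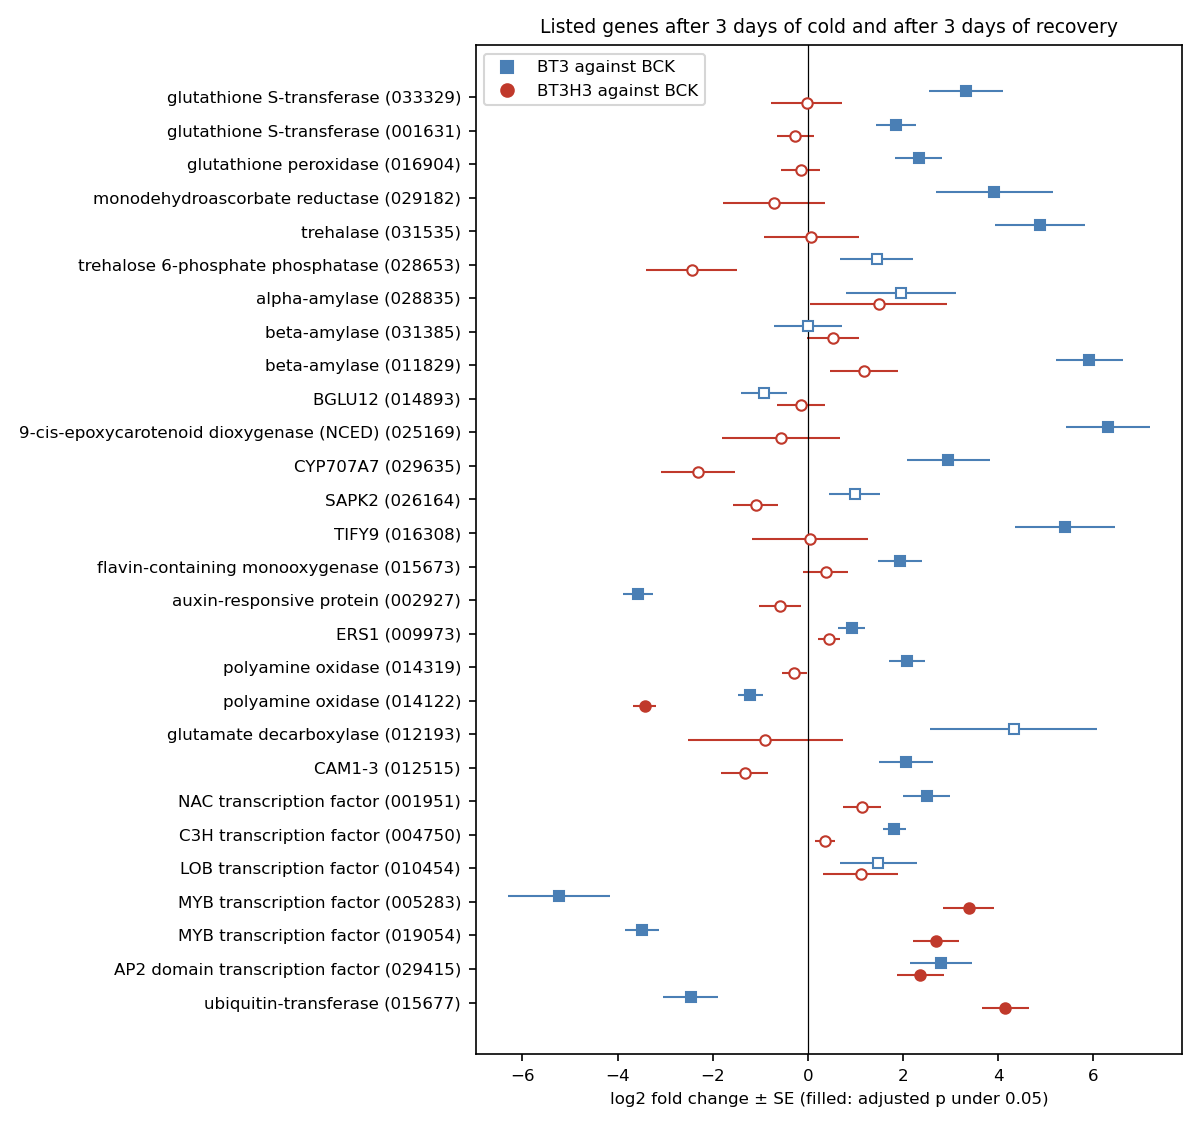
Log2 fold change with its SE (horizontal axis) of the annotated listed genes in BT3 against BCK (squares) and in BT3H3 against BCK (circles), which share the BCK libraries, with filled symbols for an adjusted p under 0.05 and the last 6 digits of each identifier in brackets. The 4 antioxidant genes have filled squares at 1.85 to 3.92 and open circles at -0.71 to -0.03 (with library totals 2 of these lie at 0.09 and 0.10), and the MYB and ubiquitin-transferase genes change sides.

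Outside these lists, the genes with the smallest p were taken, 2 in each direction. BGIOSGA021064 stood at 1.96, 1.36 and 1.17 FPKM in BCK and at 85.0, 139 and 103 FPKM in BT3H3 (log2 fold change 5.89 ± 0.41, adjusted p = 0.0133 in edgeR). BGIOSGA005228 stood at 2.27, 3.94 and 3.03 FPKM in BCK and at 49.3, 43.6 and 38.7 FPKM in BT3H3 (3.58 ± 0.25, adjusted p = 0.0133). Both had a mean level in BT3H1 between those of BCK and BT3H3. On the same recovery day after 1 day of cold, in BT1H3, their means were 134 and 10.1 FPKM. BT3H3 against BT1H3 gave -0.35 ± 0.62 and 2.10 ± 0.56, both missing the threshold (adjusted p = 0.741 and 0.0604 in edgeR). BGIOSGA021421 had 908, 1079 and 1107 counts in BCK and 0 in each BT3H3 library, so it was at least 288-fold lower, taking 3 counts per library as the floor. It was below BCK in the other recovery groups too, with 12, 57 and 38 counts in BT3H1 and 8, 174 and 18 in BT1H3. In BT1H1, DC907 after 1 day of cold and 1 day of recovery, it had 9, 23 and 7. The other downregulated gene was the polyamine oxidase BGIOSGA014122.

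Some genes were counted in only 1 of the groups. With at least 10 counts in every library of a group and 0 in all 3 of the other, 14 of 43254 genes were found in BT3H3 alone and 15 in BCK alone. The bound on the fold ran from 3.19 to 40.7 for those of BT3H3 and from 3.49 to 288 for those of BCK. Most of these genes had reads in each of the other DC907 groups. All 14 genes found in BT3H3 and not in BCK had reads in BT3H1, and 10 of the 15 genes found in BCK and not in BT3H3 did. In BT3, BT1H3 and BT1H1 the numbers were 12, 13 and 14 of the 14, and 14, 13 and 14 of the 15. In BT1, DC907 after 1 day of cold, they were 13 and 15.

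More genes were DEGs against the end of the cold than against the uncooled plants. The spread within groups differed between these fits, with a common biological coefficient of variation of 0.392 against BT3 and 0.499 against BCK. The part of this spread in the DEG counts was not tested. In BT3H3 against BT3, 11912 of 23007 genes (51.8%) were DEGs in edgeR, 5815 of them upregulated (25.3%) and 6097 downregulated (26.5%). Of the 38 listed genes tested there, 7 were upregulated and 25 downregulated. Between the first and the third day of recovery, BT3H3 against BT3H1, 1904 of 22747 genes (8.37%) were DEGs, 1048 upregulated (4.61%) and 856 downregulated (3.76%). Of 36 listed genes tested there, 3 were upregulated, namely BGIOSGA005283, BGIOSGA015677 and the NAC gene BGIOSGA001951, and BGIOSGA029182 was downregulated. This count fell to 1 without BT3H3 replicate 2 or BT3H1 replicate 1, to 15 without BT3H1 replicate 2, to 31 without BT3H3 replicate 1, to 814 without BT3H1 replicate 3 and to 1247 without BT3H3 replicate 3. On the same recovery day, BT3H3 against BT1H3, where the cold had lasted 3 days or 1 day, 2296 of 22615 genes (10.2%) were DEGs, 1110 upregulated (4.91%) and 1186 downregulated (5.24%). This count was 376, 961 and 3126 without BT3H3 replicate 1, 2 or 3, and 32, 800 and 216 without BT1H3 replicate 1, 2 or 3. Of 37 listed genes tested there, 3 were upregulated, the 2 MYB genes and the glutathione S-transferase BGIOSGA033329. The 6 that were downregulated were the trehalose phosphatase, SAPK2, TIFY9, CAM1-3, the polyamine oxidase BGIOSGA014122 and BGIOSGA014600.

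Among the 7 DC907 groups, BT3H3 had the highest mean FPKM for 1114 of the 1894 upregulated genes (58.8%), beside 16.6% of all genes tested. It had the lowest mean for 1108 of the 2201 downregulated genes (50.3%), beside 12.8% of all genes tested. These genes were chosen for being high or low in BT3H3, so the shares describe them and test nothing.

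The DEGs of BT3H3 against BCK were then read in libraries that had no part in choosing them. In BT3H1 against BT3, the first day of recovery against the end of the cold, the upregulated genes had a median log2 fold change of 0.79. Of 1832 tested, 875 (47.8%) were upregulated and 212 (11.6%) downregulated, beside 23.9% each way of all genes tested (47.9% were DEGs in either direction). The downregulated genes had a median of -0.29. Of 2095 tested, 580 (27.7%) were downregulated, near the 23.9% of all genes, and 305 (14.6%) were upregulated. The median over all genes was 0.03.

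In 9311 the directions were mostly those of DC907. In AT1H1 against ACK, 1 day of recovery after 1 day of cold, 91.6% of 1778 genes upregulated in BT3H3 had a positive log2 fold change, with a median of 0.75. Of 2173 downregulated genes 7.32% had a positive one, with a median of -1.05, while over all 22771 genes tested 46.2% were positive and the median was -0.07. Only 2 genes (0.00878%) were DEGs in AT1H1 against ACK in edgeR, so these shares rest on changes that are mostly below the threshold gene by gene. In AT1 against ACK, without recovery, 59.4% of the upregulated and 26.4% of the downregulated genes had a positive log2 fold change, beside 46.8% over all genes. There 30.5% of 22644 genes were DEGs, 16.8% upward and 13.7% downward. ACK, like BCK, is 1 uncooled group for all time points of its cultivar, so the limit on plant age given above applies there too.

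**Figure D5:**
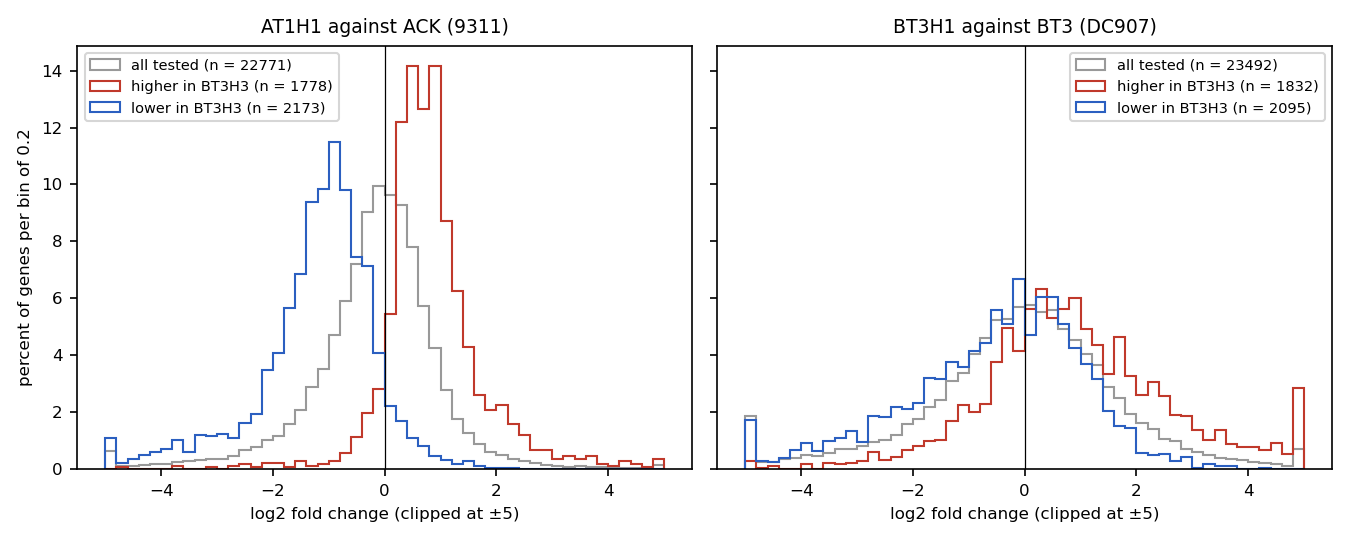
Distribution of log2 fold changes (horizontal axis, values beyond 5 drawn at 5) in percent of genes per bin, for the genes upregulated and downregulated in BT3H3 against BCK and for all genes tested, in AT1H1 against ACK and in BT3H1 against BT3. In the 9311 comparison the medians are 0.75, -1.05 and -0.07, and in the DC907 comparison 0.79, -0.29 and 0.03.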

How the data were processed

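The authors extracted total RNA from stems and leaves, made cDNA libraries with oligo-dT primers and sequenced them on an Illumina platform. Per their methods, they aligned the reads by HISAT2 against the indica assembly of Ensembl Plants release 41 and found new genes with Cufflinks. They deposited raw counts per gene and FPKM. The deposited FPKM equal the count over gene length and table total, to a relative deviation of at most 1.3e-08 for counts of at least 10. The counting program, strand setting and handling of reads shared by similar or overlapping genes are not given in the sources used here, so such genes are uncertain.

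Counts of 6 libraries per comparison were fitted with edgeR 4.0.16 in R 4.3.3 (TMM, filterByExpr, robust quasi-likelihood test, no block), with Benjamini-Hochberg adjustment over all genes tested and an adjusted p under 0.05. The SE was obtained from the log2 fold change and the F statistic. The common biological coefficient of variation of BT3H3 was 0.499 in the fit against BCK, 0.392 against BT3, 0.377 against BT3H1 and 0.337 against BT1H3. Groups came from the labels. FPKM served for levels. Cultivar markers had a difference of at least 2 in log2(CPM + 0.1). Alternatives were DESeq2 1.42.0, median-ratio factors, other filters, all 36 libraries, a minimum log2 fold change of 1, the replicate number as a block, each library left out and library totals. The code was tested on simulated data.

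Named genes are the listed genes, with values for those past the threshold and for those a result turns on, and the 2 genes with the smallest p in each direction without overlap. The comparison, lists and alternatives were chosen with earlier results of these data known. Of the identifiers, 0 matched the RefSeq table, and 3 with conflicting identifiers in the study were left out. The libraries labelled AT3 and AT3H1 entered only the fit with all 36 libraries. Of the 2 listed genes not tested, the lipoxygenase was at 0 in all 6 libraries and CKX8 fell under the filter.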

Additional observations from a re-analysis of the deposited data

How the results depend on the processing

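DEGs in BT3H3 against BCK numbered 7553 with DESeq2 (3030 higher, 4523 lower) and 7216 with all 36 libraries in 1 fit (3120 and 4096). They ranged from 0 to 4115 with 1 library left out (0 to 1618 higher, 0 to 2754 lower). Median-ratio factors, both filters, a log2 fold change of at least 1 and library totals, the last chosen after seeing the data, gave 3305 to 4540. BT3H3 against BT3H1 gave 4474 with DESeq2, 384 with all 36 libraries, 1210 with a log2 fold change of at least 1 and 1 to 1247 with 1 library left out. BT3H3 against BT1H3 gave 4496, 435 and 1442 under these settings and 32 to 3126 with 1 library left out. BT3H3 against BT3 moved by less than 1.5 times, from 8522 with 1 library left out to 14247 with DESeq2. The causes were not tested. Same-numbered samples of BT3H3 and BCK correlated at -0.25 to 0.12 and 1 of 6 correlated best with its own number, so the numbers were not read as pairs. With the replicate block the counts were 0 against BCK (0 higher, 0 lower, 6446 at an unadjusted p under 0.05), 0 against BT3H1 (5752) and 694 against BT1H3.

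Of 512 values of named genes under these settings, 44 lost the call, 14 gained it and 424 kept sign and side. The sign turned in 30 values of 10 genes, in 29 of them without a call in either fit. The other was BGIOSGA029182, from -1.24 to 1.76 with 1 library left out, the latter without BCK replicate 2. Genes in BT3H3 alone numbered 26 and 5 at minimums of 5 and 20 counts, and genes in BCK alone 40 and 6. Genes under 1 FPKM had the lowest share of calls of the level classes, and the part of depth in this was not tested.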
